A study of Mus musculus with 13 samples.

Results

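RNA of natural killer (NK) cells that had been cultured for 72 hours in interleukin-15 (IL-15) under the condition labelled LD and then stimulated for 6 hours with anti-NK1.1 was compared with RNA of naive NK cells given the same stimulation. The comparison takes the 2 LD libraries and the 3 naive libraries stimulated with anti-NK1.1, 5 of the 13 libraries of the series, and covers every gene in the table. All cells were splenic NK cells of wild-type (WT) C57BL/6 mice. The labels do not spell out LD or HD, the other IL-15 condition, and give naive cells no culture time; the table's own header calls them fresh. For naive replicates 1 and 4 the stimulation label gives only the 6 hours, and their titles give anti-NK1.1. No LD library without anti-NK1.1 is in the sample list used here, so an effect of culture alone and a changed response to the antibody cannot be told apart. The labels do not say whether replicates came from separate mice or cultures, so the spread behind each p-value may be technical.

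IL-15 is the cytokine on which NK cells depend for survival. It signals through a receptor whose beta and common gamma chains it shares with IL-2, by JAK1, JAK3 and STAT5, and drives growth, division and the build-up of cytotoxic granules. NK1.1, the product of Klrb1c in C57BL/6 mice, is an activating receptor that signals through the ITAM-bearing Fc receptor gamma chain (Fcer1g), and antibody to it triggers cytokine release and degranulation.

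Of the 11989 genes in the table, 11543 passed a filter on low values and were tested. Values are given as CPM (counts per 1000000) back-transformed from the authors' log2 values, and are compared between libraries within a gene only, because they are not scaled to gene length. Changes are log2 differences of LD minus naive with their standard error (SE) from a limma model of the 5 groups of the series, and a gene is called when its p, adjusted over all 11543 genes, is under 0.05. Rose and fell are used below for higher and lower in LD than in the naive libraries with anti-NK1.1, and not for a change over time. LD replicate 1 was the deepest library, with 463 reads at its median gene, against 266 in LD replicate 3 and 201, 167 and 166 in naive replicates 1, 4 and 5. LD replicate 1 was also the only one of the 5 in library pool 1 of the table's header; LD replicate 3 and the naive libraries were in pool 2. Across genes, the LD libraries correlated with each other at r = 0.966 and the naive libraries at 0.956 to 0.967, while LD and naive libraries correlated at 0.923 to 0.934.

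LD cells had 758 genes called higher than naive cells (6.57% of those tested) and 808 called lower (7.0%), and the median change over all genes was 0.01. The change passed 2-fold in 593 of the higher and 624 of the lower genes. In 1564 of the 1566 called genes the LD and naive values did not overlap, which was also so for 2510 tested genes with LD above and 2644 with LD below naive. Without LD replicate 1, 312 genes were higher and 347 lower; without LD replicate 3 the counts were 392 and 427, and without naive replicate 5 they were 498 and 528. A fit with library pool as a factor rests on LD replicate 3 alone against the naive libraries. In it all 758 higher and 808 lower genes kept their sign. For the 1564 genes without overlap this was fixed beforehand, because LD replicate 3 already lay beyond every naive library. The kept sign is therefore no test of an effect of pool. Where a gene list below has 0 calls in a direction, 0 members moved that way at an unadjusted limma p under 0.05 and limma-voom on recovered reads called 0, with these exceptions. At the unadjusted p, 1 quiescence factor, 1 trafficking gene, 1 interferon-induced gene, 1 red cell gene and 2 metallothionein and zinc genes were higher, and 1 B cell marker was lower. Limma-voom called 1 higher gene each in the quiescence, metallothionein and red cell lists and 1 lower B cell marker. The lists were chosen with earlier results of these data known, so a share above the background is partly given by the choice of members.

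**Figure D1:**
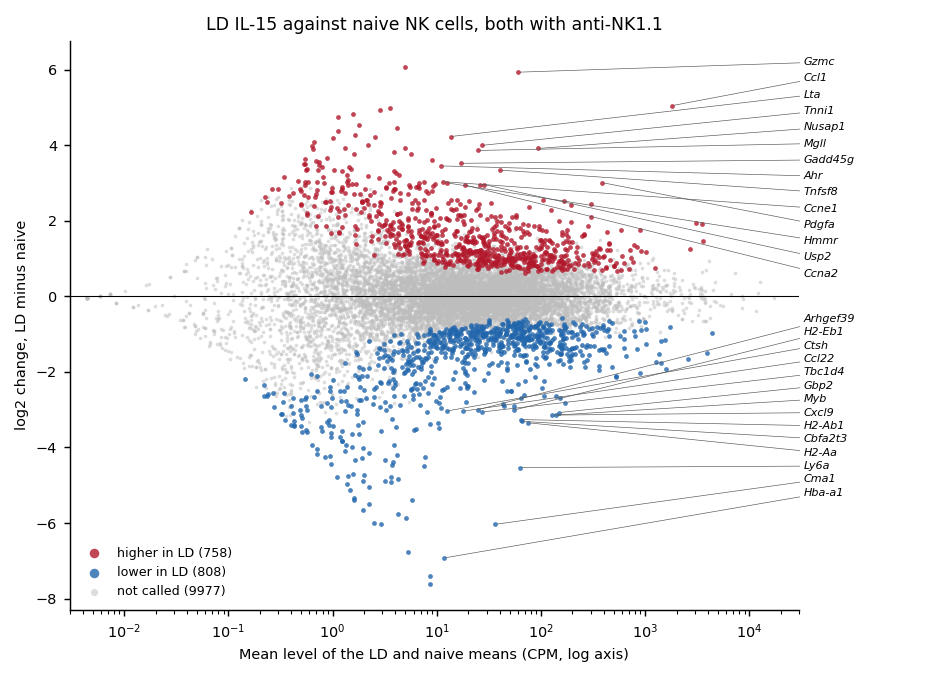
Log2 change of every tested gene, LD minus naive, against the mean of its LD and naive levels (CPM, log axis); red points are the 758 genes called higher in LD, blue points the 808 called lower, and grey points were not called. The 14 largest called increases and decreases with a mean of at least 20 CPM in 1 group are named, from Gzmc at 5.93 to Hba-a1 at -6.93.

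The labelled cell type was checked against its markers. All 13 NK markers set down for this check, among them Ncr1, Klrk1, Klrd1, Nkg7 and Tyrobp, had reads in every library, and the lowest was Itga2 (CD49b), at 15.5 and 11.1 CPM in LD cells and 21.5, 33.2 and 20.2 CPM in naive cells. Their summed level was 5320 and 6419 CPM in LD cells, against 6797, 6210 and 7400 CPM in naive cells. Of the B cell markers, Cd79a and Ms4a1 had no read in either LD library. In bulk RNA a smaller share of cells of one kind and less RNA per cell cannot be told apart, and this holds for every level below.

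The gene of the stimulated receptor itself was higher in LD cells. Klrb1c (chromosome 6, 128778485 to 128789215, minus strand, mm10) had 155 and 169 CPM in LD cells and 63.6, 69.7 and 64.3 CPM in naive cells, a log2 change of 1.30 ± 0.20 (SE, adjusted p = 0.00085). Its neighbours in the same family split. Klrb1a was higher, at 63.4 and 68.6 CPM in LD cells, against 17.88, 12.2 and 15.3 CPM in naive cells (2.14 ± 0.24, adjusted p = 7.17e-05). Klrb1b, an inhibitory receptor of the Clr-b ligand, fell to 87.9 and 136 CPM in LD cells, against 280, 230 and 354 CPM in naive cells (-1.37 ± 0.24, adjusted p = 0.00217). The LD and naive values of these genes did not overlap, and each call held without any single library. Naive libraries without anti-NK1.1 were above both LD libraries for each of these genes. They had 614, 760 and 772 CPM of Klrb1c, 126, 135 and 156 CPM of Klrb1a, and 145, 171 and 138 CPM of Klrb1b. The sequences of Klrb1 genes are alike, and how the authors' counting divided shared reads is not given in the sources used here.

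Among 38 genes of NK identity and receptors, 6 (15.8%) were higher and 3 (7.89%) lower in LD cells, and the list's median change was 0.04. The higher members besides Klrb1c and Klrb1a were Ncr1, Klrb1f, Cd226 and Cd160, and the lower ones besides Klrb1b were Tigit and Cd247; without naive replicate 1 or naive replicate 5 only 1 lower call was left. Ncr1, which encodes the activating receptor NKp46, had 129 and 210 CPM in LD cells and 82.7, 70.8 and 75.7 CPM in naive cells (1.11 ± 0.26, adjusted p = 0.0122), and its adjusted p was 0.145 without LD replicate 3. Cd226, the activating receptor DNAM-1, had 23.5 and 21.7 CPM in LD cells, against 7.54, 6.04 and 8.85 CPM in naive cells (1.60 ± 0.34, adjusted p = 0.0075; 0.0623 without LD replicate 1). Naive libraries without anti-NK1.1 had 436, 604 and 580 CPM of Ncr1 and 33.1, 33.0 and 58.8 CPM of Cd226. These levels were above both LD libraries for each gene. Of 17 genes of proximal signalling, 2 were higher, Ptpn6 among them, and 3 lower (Syk, Plcg1 and Inpp5d), with a median of -0.07. Leaving out 1 library left 1 or 2 of the higher and between 0 and 2 of the lower calls in this signalling list, 0 lower ones without LD replicate 3.

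The granzymes, serine proteases of cytotoxic granules, moved in both directions. Gzmc (chromosome 14, 56231441 to 56234656, minus strand) had the largest increase among the leading genes, with 111 and 128 CPM in LD cells and 1.98, 2.07 and 1.62 CPM in naive cells, a log2 change of 5.93 ± 0.22 (adjusted p = 1.72e-09). Gzmb, the main granzyme that triggers apoptosis, had 488 and 848 CPM in LD cells and 207, 153 and 238 CPM in naive cells (1.71 ± 0.27, adjusted p = 0.000924). These LD libraries were above every naive library. Gzma, a tryptase, fell to 526 and 775 CPM in LD cells, against 2048, 2132 and 2293 CPM in naive cells (-1.76 ± 0.26, adjusted p = 0.000664). Gzmk fell as well, to 4.49 and 6.03 CPM in LD cells, against 28.1, 26.4 and 30.6 CPM in naive cells (-2.43 ± 0.25, adjusted p = 3.4e-05). Prf1, the pore-forming perforin, did not pass the test, at 1034 and 492 CPM in LD cells and 343, 234 and 352 CPM in naive cells (1.23 ± 0.46, adjusted p = 0.0887), and its change was 0.69 without LD replicate 1. Of the 10 genes, 2 were higher and 2 lower, with 4 higher without LD replicate 3, and the median was 1.05. Gzmc shares sequence with the neighbouring granzymes of its locus, so their separate counts are uncertain.

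Of 18 genes of granule release and death ligands, 4 were higher (Nkg7, Tnfsf10, Serpinb9 and Cst7) and Lyst was lower, with a median of 0.34. Nkg7, a granule membrane protein needed for degranulation, had 848 and 1152 CPM in LD cells, against 416, 408 and 453 CPM in naive cells (1.22 ± 0.22, adjusted p = 0.00262). Its level in naive libraries without anti-NK1.1 was 2609, 2964 and 3064 CPM, above both LD libraries. Tnfsf10, the death ligand TRAIL, had 89.95 and 66.5 CPM in LD cells and 22.8, 13.4 and 26.6 CPM in naive cells (1.94 ± 0.42, adjusted p = 0.00824; 0.0843 without LD replicate 1). The number of higher members in this list was 1 without LD replicate 1, 2 without LD replicate 3 and 2 without naive replicate 4, and the call of Lyst was lost without LD replicate 3, naive replicate 1 or naive replicate 4.

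**Figure D2:**
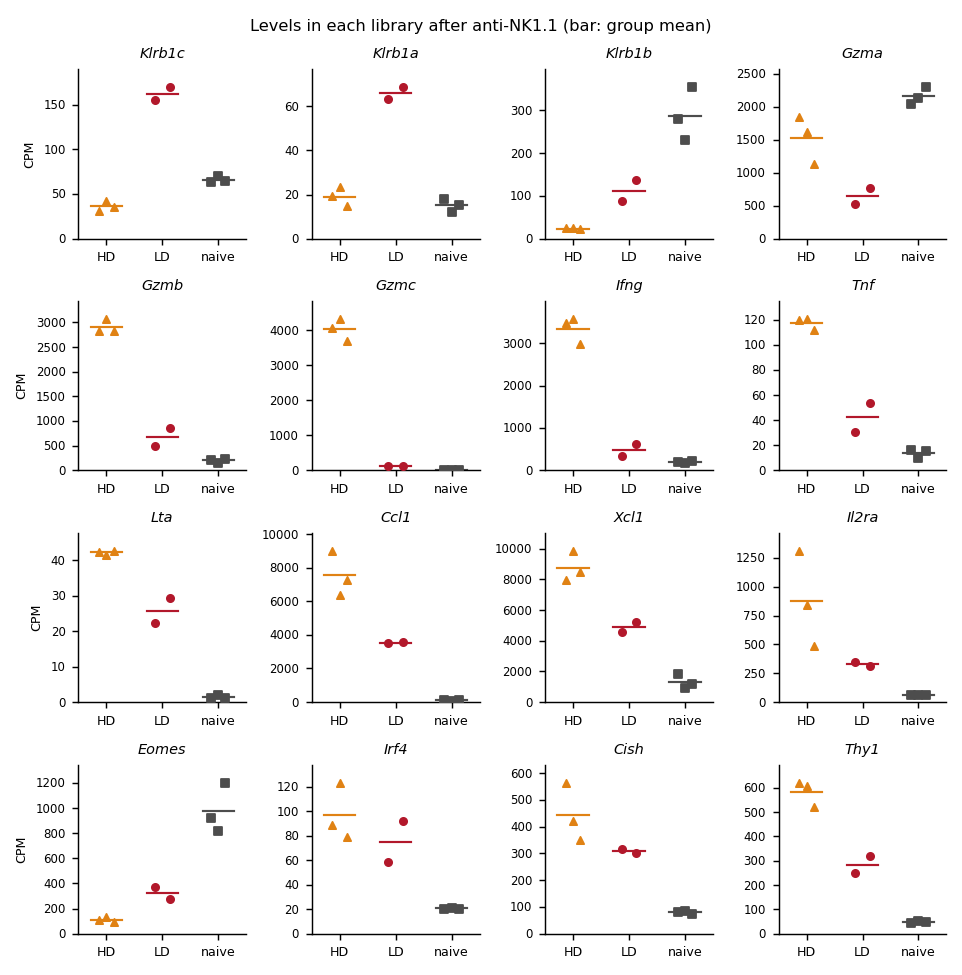
Levels of 16 receptor, effector and regulator genes (CPM, each axis from 0) in the HD (orange triangles, 3 libraries), LD (red circles, 2) and naive (grey squares, 3) libraries after anti-NK1.1, with the mean of each group as a bar. LD lies above naive in Klrb1c (155 and 169 CPM against 63.6 to 69.7 CPM) and below it in Gzma, Klrb1b and Eomes.

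Cytokine genes had more higher than lower calls in LD cells: of 14 tested, 6 (42.9%) were higher and 2 (14.3%) lower, with a median of 1.1. The higher ones were Ifng, Tnf, Lta, Ltb, Il2 and Fgf18, and the lower ones Csf1 and Tgfb1. Ifng, the macrophage-activating interferon gamma, had 342 and 617 CPM in LD cells and 190, 182 and 231 CPM in naive cells (1.2 ± 0.26, adjusted p = 0.0075). Tnf had 30.9 and 53.9 CPM in LD cells, against 15.96, 10.1 and 15.5 CPM in naive cells (1.58 ± 0.31, adjusted p = 0.00455). Both groups stood apart for each gene, but LD replicate 3 was the higher LD library: without it the change of Ifng was 0.77 (adjusted p = 0.103) and the adjusted p of Tnf was 0.0719. Lta, which encodes lymphotoxin alpha and lies beside Tnf, had 22.3 and 29.3 CPM in LD cells and 1.07, 1.90 and 1.05 CPM in naive cells (4.23 ± 0.38, adjusted p = 1.36e-05), and was called without any 1 library. Il2 was low throughout, with 235 and 206 reads in the LD libraries and 13, 8 and 5 in the naive libraries (3.94 ± 0.71, adjusted p = 0.00247). Csf2, the growth factor GM-CSF, was not called, with 4.75 and 2.70 CPM in LD cells and 1.14, 1.38 and 0.128 CPM in naive cells (2.36 ± 0.79, adjusted p = 0.0611). Without 1 library its adjusted p lay between 0.0405 (without naive replicate 4) and 0.29 (without LD replicate 1), and its change was 1.46 without naive replicate 5. The list had 3 higher and 0 lower members without LD replicate 3, and 1 lower member without naive replicate 4 or naive replicate 5.

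Of 6 tested ligands of the TNF superfamily, 4 (Tnfsf4, Tnfsf8, Tnfsf14 and Cd70; 66.7%) were higher in LD cells and 0 lower, with a median of 1.95. Tnfsf8, the CD30 ligand, had 97.0 and 50.5 CPM in LD cells, against 4.46, 8.46 and 8.45 CPM in naive cells (3.34 ± 0.46, adjusted p = 0.000349). Tnfsf14, known as LIGHT, had 28.3 and 22.9 CPM in LD cells, against 4.29, 6.34 and 4.91 CPM in naive cells (2.30 ± 0.51, adjusted p = 0.00916; 0.0812 without LD replicate 1). Cd70, the ligand of CD27, had 142 and 116 reads in the LD libraries, while naive replicates 1 and 5 had no read and naive replicate 4 had 11. Without LD replicate 1 the list had 2 higher members.

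Chemokine genes split by member: 3 of 12 were higher (Ccl1, Ccl9 and Xcl1) and 5 lower (Ccl5, Ccl6, Ccl22, Cxcl9 and Cxcl16), with a median of -0.99. Ccl1, a ligand of CCR8 (chromosome 11), had 3512 and 3571 CPM in LD cells and 131, 76.3 and 122 CPM in naive cells (5.05 ± 0.25, adjusted p = 1.98e-08). Xcl1, which attracts cross-presenting dendritic cells, had 4539 and 5229 CPM in LD cells and 1840, 903 and 1193 CPM in naive cells (1.96 ± 0.35, adjusted p = 0.00246). Ccl9 had 391 and 627 CPM in LD cells, against 100, 80.7 and 92.3 CPM in naive cells (2.45 ± 0.23, adjusted p = 2.06e-05). In the other direction, Cxcl9, a chemokine induced by interferon gamma, fell to 24.0 and 27.1 CPM in LD cells, against 243, 169 and 280 CPM in naive cells (-3.14 ± 0.60, adjusted p = 0.00379). Ccl22, a ligand of CCR4, fell to 4.49 and 3.18 CPM in LD cells, against 34.0, 29.4 and 31.7 CPM in naive cells (-3.04 ± 0.39, adjusted p = 0.000198). Naive libraries without anti-NK1.1 were below both LD libraries, at 3.89, 9.60 and 2.74 CPM of Cxcl9 and 0.932, 0.956 and 1.24 CPM of Ccl22. The inflammatory chemokines Ccl3 and Ccl4 were not called. Ccl3 had 1243 and 2317 CPM in LD cells and 1248, 1124 and 1382 CPM in naive cells, with overlap between the groups (0.44 ± 0.29, adjusted p = 0.335), and its change was -0.0047 without LD replicate 3. Without LD replicate 1 the lower members of the list were 3.

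Of 22 activation, costimulatory and checkpoint receptors, 6 (27.3%) were higher and 6 lower, with a median of 0.27. The higher ones were Cd69, Il2ra, Crtam, Tnfrsf9, Havcr2 and Thy1. Il2ra, the alpha chain that raises affinity for IL-2, had 347 and 311 CPM in LD cells and 60.1, 63.2 and 59.9 CPM in naive cells (2.43 ± 0.48, adjusted p = 0.00455). Thy1, a surface glycoprotein of activated NK cells and T cells, had 250 and 319 CPM in LD cells and 43.7, 53.8 and 49.0 CPM in naive cells (2.53 ± 0.22, adjusted p = 1.17e-05). Crtam, an adhesion receptor of activated lymphocytes, had 1248 and 1289 CPM in LD cells, against 587, 501 and 576 CPM in naive cells (1.2 ± 0.17, adjusted p = 0.000605). The lower members were Cd28, Pdcd1, Tnfrsf1b, Tnfrsf26, Ly6a and Ly6c2. Ly6a, the interferon-inducible surface protein Sca-1, was lower, at 5.05 and 5.06 CPM in LD cells, against 130, 92.5 and 138 CPM in naive cells (-4.53 ± 0.34, adjusted p = 2.14e-06). Without anti-NK1.1, naive libraries had 3.78, 6.93 and 5.31 CPM of Ly6a and 236, 240 and 277 CPM of Thy1. Pdcd1, the checkpoint receptor PD-1, had 5 and 6 reads in the LD libraries and 85, 78 and 100 in the naive libraries (-4.78 ± 0.61, adjusted p = 0.000198). These named receptors were each called without any 1 library.

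**Figure D3:**
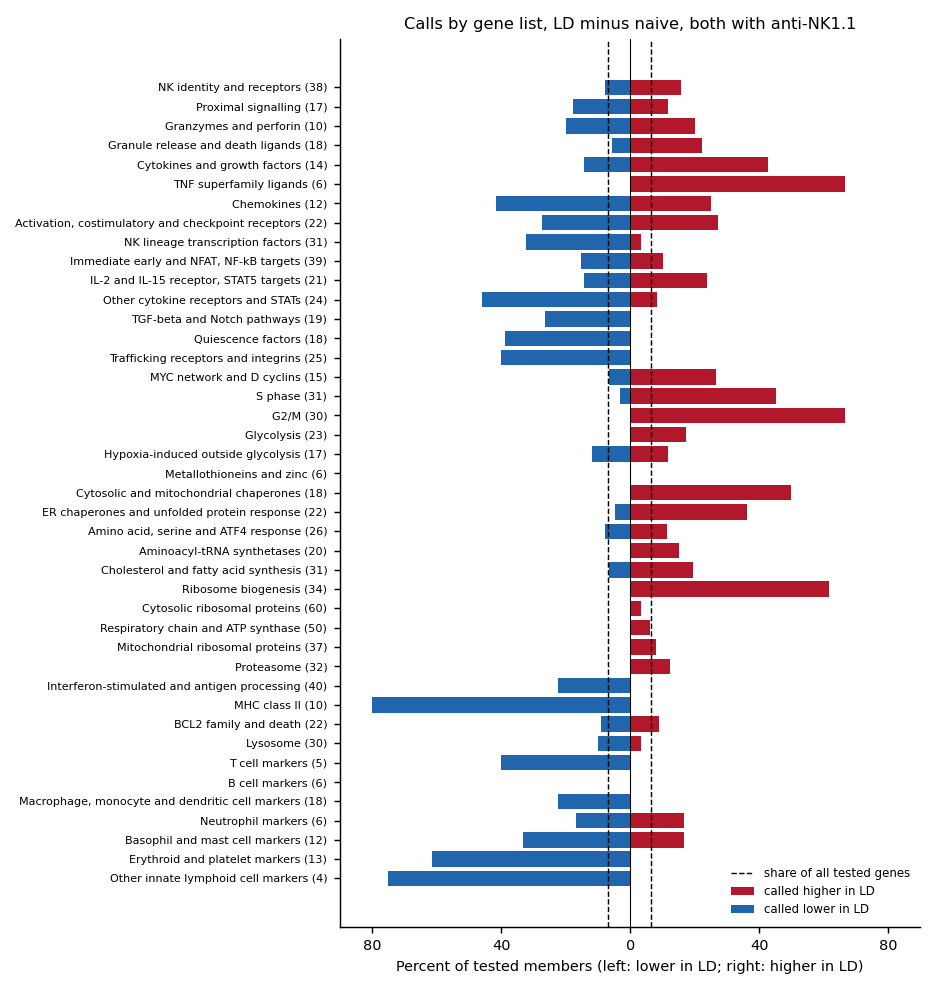
Share of the tested members of each of 42 gene lists (number tested in brackets) called higher in LD, to the right in red, and lower in LD, to the left in blue, with the shares over all tested genes (6.57% higher, 7.0% lower) as dashed lines. The longest bars to the right are G2/M and the TNF superfamily ligands (66.7% each), and the longest to the left is MHC class II (8 of 10 genes). The lists were chosen with earlier results of these data known, so the shares are not independent of the data.

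Transcription factors of the NK lineage had more lower than higher calls in LD cells: 10 of 31 (32.3%) fell, 1 (3.23%), Zbtb32, rose and the others were not called, with a median of -0.63. Eomes, the T-box factor of mature NK cells, had 374 and 276 CPM in LD cells and 924, 815 and 1202 CPM in naive cells (-1.59 ± 0.24, adjusted p = 0.000863). Tbx21, its relative T-bet, was not called, with 85.9 and 134 CPM in LD cells and 136, 117 and 124 CPM in naive cells (-0.23 ± 0.24, adjusted p = 0.581). The groups overlapped, and its change was 0.09 without LD replicate 1 and -0.55 without LD replicate 3. Cbfa2t3 and Myb, a corepressor and a factor of haematopoietic progenitors, fell furthest. Cbfa2t3 had 11.2 and 12.5 CPM in LD cells, against 135, 98.8 and 123 CPM in naive cells (-3.31 ± 0.22, adjusted p = 9.52e-07). Myb had 29.4 and 24.2 CPM in LD cells, against 268, 137 and 358 CPM in naive cells (-3.14 ± 0.40, adjusted p = 0.000192). Bach2, a repressor that restrains effector programmes, fell by 1.70 ± 0.23 (adjusted p = 0.00031) and Prdm1, which encodes Blimp-1, fell by 2.20 ± 0.33 (adjusted p = 0.000732). Each of the 5 lower factors given here was called without any 1 library, and Ets1, Bcl11b, Bcl11a, Irf2 and Irf8 were the others called lower.

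Immediate early genes and targets of NFAT and NF-kB changed in both directions at shares nearer the background, with 4 of 39 (10.3%) higher and 6 (15.4%) lower. Irf4, a factor induced in proportion to antigen receptor signals in lymphocytes, had 58.5 and 91.8 CPM in LD cells and 20.2, 21.3 and 20.4 CPM in naive cells (1.82 ± 0.28, adjusted p = 0.00093). Dusp1, a phosphatase of MAP kinases, fell to 20.1 and 26.9 CPM in LD cells, against 66.3, 54.4 and 76.2 CPM in naive cells (-1.48 ± 0.26, adjusted p = 0.00221). Fosl2, an AP-1 subunit, fell by 1.26 ± 0.22 (adjusted p = 0.00229). These 3 held without each library, whereas Egr2 and Nr4a1 did not. Egr2, a zinc finger factor induced by ITAM receptors, had 649 and 266 CPM in LD cells and 196, 172 and 205 CPM in naive cells (1.13 ± 0.31, adjusted p = 0.0269), and its change was 0.49 without LD replicate 1 (adjusted p = 0.339). The call of Egr2 was also lost without any 1 naive library, with adjusted p from 0.0543 to 0.0676, and its change was 1.77 without LD replicate 3. Nr4a1, an orphan nuclear receptor used as a reporter of antigen receptor signals, had 62.7 and 92.0 CPM in LD cells and 141, 111 and 140 CPM in naive cells (-0.77 ± 0.23, adjusted p = 0.0408), with adjusted p of 0.311 without LD replicate 1, 0.109 without naive replicate 1 and 0.108 without naive replicate 5. Its change was -0.50 without LD replicate 1. The list had 2 higher and 2 lower members without LD replicate 1, and 3 lower members without naive replicate 5.

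Genes of the IL-2 and IL-15 receptor and of STAT5 were 5 higher (Jak3, Cish, Pim2, Bcl2l1 and Gadd45g) and 3 lower (Il2rb, Socs3 and Bcl2l11) of 21, with a median of 0.27. Cish, the STAT5 target that feeds back on IL-15 signalling, had 318 and 301 CPM in LD cells and 81.1, 83.9 and 74.3 CPM in naive cells (1.96 ± 0.27, adjusted p = 0.000389). Pim2, a survival kinase, had 33.9 and 48.9 CPM in LD cells and 9.85, 9.16 and 5.62 CPM in naive cells (2.34 ± 0.27, adjusted p = 8.66e-05). Bcl2l1, the survival protein BCL-XL, had 153 and 200 CPM in LD cells, against 70.1, 53.5 and 63.5 CPM in naive cells (1.5 ± 0.21, adjusted p = 0.000425). Bcl2l11, which encodes the death protein BIM, fell to 1085 and 1319 CPM in LD cells, against 2739, 5604 and 3488 CPM in naive cells (-1.66 ± 0.27, adjusted p = 0.00148). Bcl2, the NK survival gene, was not called, with 306 and 383 CPM in LD cells and 268, 222 and 234 CPM in naive cells (0.51 ± 0.27, adjusted p = 0.23). The calls of Cish, Pim2, Bcl2l1 and Bcl2l11 held without each library, and the list kept 1 lower member without naive replicate 1, naive replicate 4 or LD replicate 1. Among 22 BCL2 family and death genes, 2 were higher and 2 lower (9.09% each), near the 6.57% and 7.0% over all tested genes. The higher calls were 1 without naive replicate 1, naive replicate 5, LD replicate 1 or LD replicate 3, and the lower calls were 1 without LD replicate 1 and 3 without LD replicate 3.

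The promoter of Cish is shown because this gene is a textbook STAT5 target and its level separated the groups. Capitals mark TTCNNNGAA, the palindrome that STAT factors recognise, found 2 times, starting at bases 1 and 12 from the RefSeq start on the plus strand of chr9:107296409-107296708 (GRCm38.p6).
Cish: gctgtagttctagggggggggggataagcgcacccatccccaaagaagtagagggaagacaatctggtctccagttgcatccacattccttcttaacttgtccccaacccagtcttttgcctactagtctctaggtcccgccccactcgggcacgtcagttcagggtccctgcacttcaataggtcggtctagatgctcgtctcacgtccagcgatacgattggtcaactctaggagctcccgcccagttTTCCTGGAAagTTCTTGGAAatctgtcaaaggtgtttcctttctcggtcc
TTCNNNGAA occurred in the 300-base promoters of 2 of 17 list members with a RefSeq entry (11.8%) and of 768 of 9246 tested genes with an entry (8.31%). The window runs from 250 bases before to 50 bases after the start, and both strands were searched.

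Receptors for other cytokines and the STAT factors had more lower than higher calls, with 11 of 24 (45.8%) lower, 2 (8.33%) higher and a median of -1.15. Stat3 fell to 317 and 379 CPM in LD cells, against 1243, 1595 and 1469 CPM in naive cells (-2.04 ± 0.19, adjusted p = 2.01e-05). Ifngr1, the ligand-binding chain of the interferon gamma receptor, fell to 204 and 205 CPM in LD cells, against 805, 630 and 827 CPM in naive cells (-1.87 ± 0.26, adjusted p = 0.000438). Csf2rb, the shared beta chain of the receptors for GM-CSF, IL-3 and IL-5, fell to 9.47 and 11.3 CPM in LD cells, against 82.2, 70.2 and 74.9 CPM in naive cells (-2.86 ± 0.39, adjusted p = 0.000342). Each of these was called without any 1 library. Without anti-NK1.1, naive libraries had 259, 305 and 279 CPM of Stat3, below both LD libraries. They had 503, 644 and 507 CPM of Ifngr1 and 26.4, 19.6 and 17.0 CPM of Csf2rb, above both LD libraries. Other lower members included Il7r, Il10ra, Il1rl1, Il6ra, Il6st, Csf2rb2 and Stat4. The higher members, Il21r and Il4ra, were not called when any 1 of the 5 libraries was left out, and 6 lower members were left without LD replicate 1.

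Genes that hold lymphocytes at rest, position them in tissue or carry signals of TGF-beta and Notch had lower calls and 0 higher calls in LD cells. Of 18 quiescence factors, 7 (38.9%) were lower (Klf2, Klf3, Klf4, Foxo1, Btg2, Txnip and Tsc22d3), with a median of -0.60. Klf2, which maintains quiescence and the expression of exit receptors, had 27.7 and 37.0 CPM in LD cells and 86.3, 79.2 and 89.6 CPM in naive cells (-1.40 ± 0.20, adjusted p = 0.000564). Of 25 trafficking receptors and integrins, 10 were lower, with a median of -0.59. Cxcr4, the bone marrow homing receptor, had 34.3 and 50.7 CPM in LD cells and 313, 247 and 328 CPM in naive cells (-2.81 ± 0.27, adjusted p = 2.06e-05). Ccr7, the lymph node homing receptor, fell by 2.51 ± 0.38 (adjusted p = 0.000786). The LD and naive values of these genes did not overlap, and their calls held without any 1 library. The trafficking list had 5 lower members without LD replicate 1. Of 19 TGF-beta and Notch genes, 5 (26.3%) were lower (Smad7, Pmepa1, Tgif1, Dtx1 and Hes1), with a median of -0.50. Hes1, a Notch target, had 12.2 and 11.6 CPM in LD cells and 28.3, 39.5 and 36.9 CPM in naive cells (-1.53 ± 0.31, adjusted p = 0.00575). In this last list the lower members were 1 without LD replicate 1, 2 without LD replicate 3, 2 without naive replicate 5 and 3 without naive replicate 4.

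Mitotic genes were higher in LD cells. Of 30 genes of G2 and mitosis, 20 (66.7%) were higher and 0 lower, with a median of 2.0. In 28 of the 30 both LD libraries were above every naive library, which was so for 2510 of all 11543 tested genes. Ccna2, cyclin A2, had 28.6 and 37.8 CPM in LD cells and 4.07, 3.99 and 4.59 CPM in naive cells (2.94 ± 0.27, adjusted p = 1.6e-05). Cdk1, the kinase of mitotic entry, had 35.6 and 44.3 CPM in LD cells and 7.94, 9.08 and 7.30 CPM in naive cells (2.29 ± 0.23, adjusted p = 2.33e-05). Nusap1, a spindle protein, had 167 and 178 CPM in LD cells and 7.07, 32.0 and 6.46 CPM in naive cells (3.92 ± 0.49, adjusted p = 0.000192). Among the naive libraries, replicate 4 was the highest for Nusap1 and stayed below both LD libraries. Hmmr, a microtubule-associated hyaluronan receptor, had 28.4 and 16.1 CPM in LD cells and 1.28, 2.44 and 5.53 CPM in naive cells (3.0 ± 0.55, adjusted p = 0.00283). Mki67, the usual marker of dividing cells, was not called, at 16.9 and 11.8 CPM in LD cells and 7.30, 8.46 and 6.62 CPM in naive cells (0.92 ± 0.32, adjusted p = 0.075). Naive libraries without anti-NK1.1 had 17.0, 15.8 and 25.7 CPM of Ccna2 and 13.5, 16.3 and 18.45 CPM of Cdk1. These levels lay between the naive libraries with anti-NK1.1 and the LD libraries. For Nusap1 and Hmmr the naive libraries with and without anti-NK1.1 overlapped. With 1 library left out, 14 to 21 mitotic genes were higher, fewest without LD replicate 1.

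The promoters of 3 of these mitotic genes are shown because genes of this class share an element near the start, the cell cycle genes homology region, through which they are repressed in resting cells. Capitals mark its core, TTTGAA, read on either strand. All 3 lie on the minus strand in GRCm38.p6: Hmmr at chr11:40733388-40733687, Ccnb2 at chr9:70421505-70421804 and Cdk1 at chr10:69352863-69353162.
Hmmr: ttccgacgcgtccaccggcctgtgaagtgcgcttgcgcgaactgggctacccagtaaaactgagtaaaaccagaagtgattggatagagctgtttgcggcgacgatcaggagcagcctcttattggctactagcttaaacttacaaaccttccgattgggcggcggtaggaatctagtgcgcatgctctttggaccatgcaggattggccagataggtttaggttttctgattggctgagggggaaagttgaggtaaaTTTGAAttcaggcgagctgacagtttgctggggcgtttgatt
Ccnb2: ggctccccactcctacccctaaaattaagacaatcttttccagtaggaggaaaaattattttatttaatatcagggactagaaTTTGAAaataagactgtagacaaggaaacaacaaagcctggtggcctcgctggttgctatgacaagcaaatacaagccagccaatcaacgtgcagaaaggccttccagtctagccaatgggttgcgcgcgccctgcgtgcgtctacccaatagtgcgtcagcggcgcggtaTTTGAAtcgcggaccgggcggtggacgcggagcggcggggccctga
Cdk1: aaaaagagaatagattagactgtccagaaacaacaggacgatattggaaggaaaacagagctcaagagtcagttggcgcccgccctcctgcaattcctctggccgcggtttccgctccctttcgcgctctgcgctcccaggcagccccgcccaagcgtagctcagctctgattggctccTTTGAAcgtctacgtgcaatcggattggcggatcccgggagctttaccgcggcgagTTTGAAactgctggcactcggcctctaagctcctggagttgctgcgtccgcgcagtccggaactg
The match began at base 9 after the start in Hmmr, at bases -167 and 5 in Ccnb2, and at bases -71 and -15 in Cdk1. TTTGAA was present in the promoters of 18 of 25 mitotic list members with a RefSeq entry (72.0%), of 3 of 23 members of the S phase list and of 1337 of 9246 tested genes (14.5%). A match describes these letters only and is not a measured binding site.

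S phase genes and the MYC network also had more higher than lower calls. Of 31 S phase genes, 14 (45.2%) were higher and 1 (3.23%) lower, with a median of 0.78; 5 were higher without LD replicate 1 and 7 without LD replicate 3. Rrm2, a subunit of ribonucleotide reductase, had 20.2 and 26.4 CPM in LD cells and 5.78, 2.44 and 4.22 CPM in naive cells (2.54 ± 0.32, adjusted p = 0.000171). Ccne2, cyclin E2, had 42.1 and 26.2 CPM in LD cells and 10.1, 5.13 and 3.57 CPM in naive cells (2.53 ± 0.45, adjusted p = 0.00247). Mcm6, a subunit of the replicative helicase, went the other way, at 63.1 and 75.8 CPM in LD cells and 174, 166 and 211 CPM in naive cells (-1.40 ± 0.20, adjusted p = 0.000512). Ccne1, cyclin E1, had 32.5 and 8.92 CPM in LD cells and 2.20, 1.81 and 2.04 CPM in naive cells (3.04 ± 0.64, adjusted p = 0.00683; 0.112 without LD replicate 1). Of 15 genes of the MYC network and D cyclins, 4 were higher (Myc, Mxd3, Ccnd2 and Cdk4; 2 without LD replicate 1) and Mxd1, a MYC antagonist, was lower. Ccnd2, cyclin D2, had 6362 and 4749 CPM in LD cells and 1350, 1567 and 1422 CPM in naive cells (1.93 ± 0.23, adjusted p = 0.000109). Myc had 28.4 and 47.7 CPM in LD cells and 11.5, 10.4 and 10.2 CPM in naive cells (1.78 ± 0.25, adjusted p = 0.000425).

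**Figure D4:**
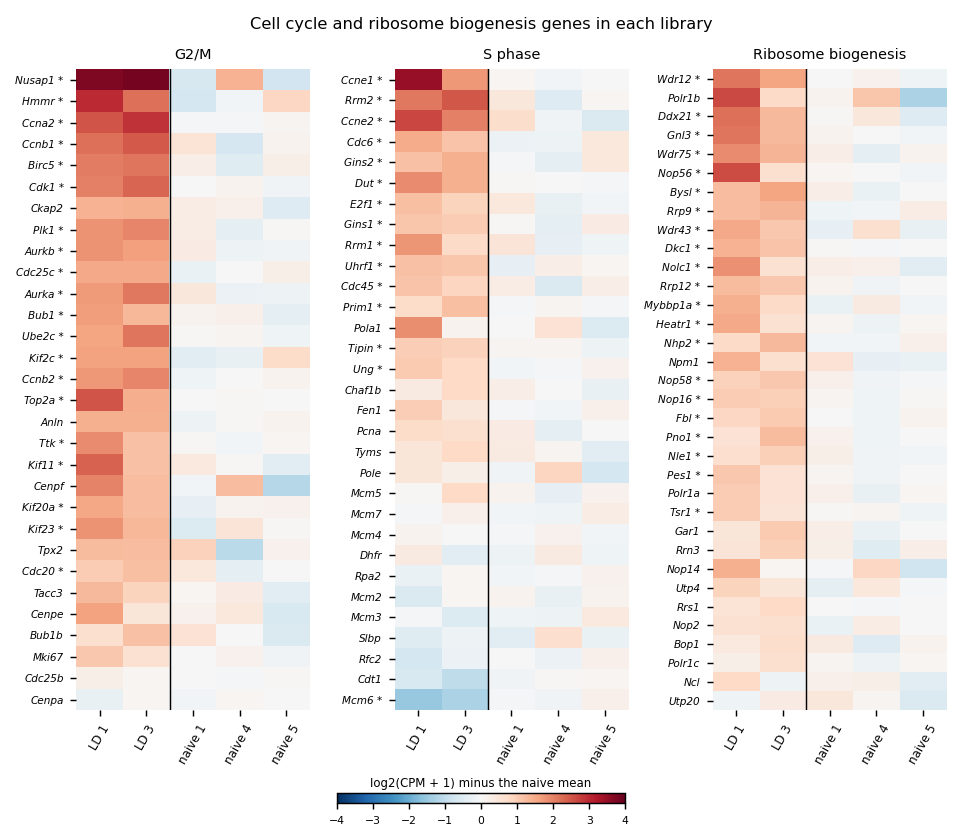
Members of the G2/M, S phase and ribosome biogenesis lists (rows, ordered by change, asterisks for called genes) in the LD libraries, left of the line, and the naive libraries; colour is log2(CPM + 1) minus the naive mean of that gene, red above and blue below it. The rows of both LD libraries are red for most genes, while Mcm6 and Cdt1 are blue in both.

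Ribosome biogenesis genes, which encode nucleolar factors that process ribosomal RNA, were higher in 21 of 34 cases (61.8%) and lower in 0, with a median of 1.0. In 30 of the 34 both LD libraries were above every naive library, which was so for 2510 of all 11543 tested genes. Dkc1, the pseudouridine synthase dyskerin, had 556 and 466 CPM in LD cells and 217, 199 and 213 CPM in naive cells (1.28 ± 0.20, adjusted p = 0.00106). Bysl, a factor of small subunit assembly, had 54.2 and 68.0 CPM in LD cells and 26.7, 18.4 and 22.5 CPM in naive cells (1.44 ± 0.23, adjusted p = 0.00118). Both were called without any 1 library. The count depended on the libraries, with 4 higher without LD replicate 1, 11 without LD replicate 3 and 11 without naive replicate 5. Cytosolic ribosomal protein genes had calls below the background, with 2 of 60 higher (3.33%), 0 lower and a median of 0.17; both higher calls were lost without LD replicate 3.

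Chaperones of the cytosol and mitochondria and of the endoplasmic reticulum had more higher than lower calls. Of 18 cytosolic and mitochondrial chaperones, 9 were higher and 0 lower, with a median of 0.78, and 5 were higher without LD replicate 1. Hspa8, the constitutive HSC70, had 5462 and 5135 CPM in LD cells and 2102, 1858 and 1764 CPM in naive cells (1.48 ± 0.25, adjusted p = 0.00152). Tcp1, a subunit of the TRiC chaperonin, had 528 and 569 CPM in LD cells and 265, 254 and 261 CPM in naive cells (1.07 ± 0.18, adjusted p = 0.00192). Of 22 genes of the endoplasmic reticulum, 8 (36.4%) were higher and Ern1 was lower, with a median of 0.74; without either LD library 5 were higher. Calr, the calcium-binding chaperone calreticulin, had 1133 and 1613 CPM in LD cells, against 332, 411 and 481 CPM in naive cells (1.74 ± 0.32, adjusted p = 0.00283). The named chaperones each held without any 1 library.

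Metabolic lists stood nearer the background. In glycolysis 4 of 23 genes (17.4%) were higher and 0 lower, with a median of 0.01, and 2 were higher without LD replicate 1. Hk2, a hexokinase that commits glucose to the pathway, had 96.6 and 101 CPM in LD cells and 26.9, 30.6 and 26.5 CPM in naive cells (1.82 ± 0.19, adjusted p = 4.07e-05). Slc2a3, the glucose transporter GLUT3, had 32.4 and 24.4 CPM in LD cells and 7.94, 5.94 and 7.38 CPM in naive cells (1.99 ± 0.24, adjusted p = 0.000123). Of 31 genes of cholesterol and fatty acid synthesis, 6 (19.4%) were higher (Mvd, Idi1, Sqle, Cyp51, Msmo1 and Hsd17b7) and the desaturases Scd2 and Fads2 were lower; 3 were higher without either LD library and 1 lower without LD replicate 3. Cyp51, which encodes lanosterol demethylase, had 51.8 and 53.4 CPM in LD cells and 11.3, 15.6 and 19.9 CPM in naive cells (1.79 ± 0.27, adjusted p = 0.000834). Of 26 amino acid and ATF4 response genes, 3 were higher (Asns, Psph and Shmt1) and 2 lower (Ddit3 and Slc38a2). Asns, asparagine synthetase, had 90.8 and 117 CPM in LD cells and 31.4, 28.2 and 33.0 CPM in naive cells (1.74 ± 0.27, adjusted p = 0.000855). Leaving out naive replicate 1 or either LD library left 0 lower calls in the ATF4 list, and naive replicate 4 left 1.

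The remaining housekeeping lists had few calls. Higher members were 3 of 20 aminoacyl-tRNA synthetases, 4 of 32 proteasome genes, 3 of 37 mitochondrial ribosomal proteins and 3 of 50 respiratory chain and ATP synthase genes, with 0 lower in each. Their medians were 0.27, 0.44, 0.55 and 0.32. In the same order, both LD libraries were above every naive library in 7, 13, 26 and 16 genes, against 2510 of all 11543 tested genes. The proteasome list had 0 higher members without LD replicate 1, 1 without LD replicate 3, 1 without naive replicate 4 and 2 without naive replicate 5. The mitochondrial ribosomal list had 1 without LD replicate 3, and the respiratory list 1 without LD replicate 3, naive replicate 1 or naive replicate 4. Cycs, cytochrome c, held throughout, at 34.1 and 30.9 CPM in LD cells and 14.1, 8.55 and 14.9 CPM in naive cells (1.41 ± 0.27, adjusted p = 0.00349). Of 17 hypoxia-induced genes outside glycolysis, 2 were higher and 2 lower, and each of these calls was lost in some fit with 1 library left out, with 0 or 1 left on either side. Of 6 metallothionein and zinc genes, 0 were called either way (1 higher without LD replicate 3), and of 30 lysosomal genes 1 was higher (0 without naive replicate 5 or LD replicate 3) and 3 were lower (1 without naive replicate 5 or LD replicate 1).

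Genes induced by interferon were lower in LD cells where they were called: 9 of 40 (22.5%) fell and 0 rose, with a median of -0.46. Gbp2, an interferon-induced GTPase, had 31.3 and 32.4 CPM in LD cells and 276, 260 and 271 CPM in naive cells (-3.08 ± 0.25, adjusted p = 6.56e-06). Gbp7 of the same family had 179 and 120 CPM in LD cells and 498, 596 and 604 CPM in naive cells (-1.94 ± 0.22, adjusted p = 7.7e-05). Irf1, an early factor of the interferon gamma response, had 38.3 and 34.6 CPM in LD cells, against 116, 94.2 and 113 CPM in naive cells (-1.56 ± 0.21, adjusted p = 0.000343). The groups did not overlap for these genes. The calls held without any 1 library, and Oasl2, Usp18, Igtp, Iigp1 and Nlrc5 were among the others called lower.

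MHC class II genes, which present peptides to CD4 T cells and are carried mainly by B cells, dendritic cells and macrophages, were the list with the largest share of lower calls among lists of 5 or more genes. Of 10 genes, 8 were lower and 0 higher, with a median of -2.69. In all 10 both LD libraries were below every naive library, which was so for 2644 of all 11543 tested genes. H2-Aa had 11.4 and 15.3 CPM in LD cells and 141, 112 and 157 CPM in naive cells (-3.35 ± 0.38, adjusted p = 7.84e-05). H2-Eb1 had 12.9 and 11.4 CPM in LD cells and 98.0, 86.5 and 111 CPM in naive cells (-3.01 ± 0.32, adjusted p = 4.03e-05). Cd74, the invariant chain, had 14.97 and 19.3 CPM in LD cells and 135, 88.5 and 114 CPM in naive cells (-2.70 ± 0.26, adjusted p = 2.33e-05). H2-Ab1, H2-DMa, H2-DMb2, H2-Ob and Ciita, the coactivator that switches these genes on, were the other lower members, and 6 to 8 of the list were called with 1 library left out.

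The promoters of H2-Aa and H2-Eb1 are shown because class II promoters share an upstream module that ends in the Y box, an inverted CCAAT element. Capitals mark CTGATTGG, searched on both strands; neither motif given before is part of it. H2-Aa lies on the minus strand at chr17:34287774-34288073 and H2-Eb1 on the plus strand at chr17:34305617-34305916 (GRCm38.p6).
H2-Aa: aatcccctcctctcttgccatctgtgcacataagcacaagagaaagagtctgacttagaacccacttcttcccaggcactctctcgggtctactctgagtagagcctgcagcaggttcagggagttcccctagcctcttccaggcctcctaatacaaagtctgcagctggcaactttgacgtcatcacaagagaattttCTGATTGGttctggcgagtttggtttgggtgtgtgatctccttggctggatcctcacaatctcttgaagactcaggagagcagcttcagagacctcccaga
H2-Eb1: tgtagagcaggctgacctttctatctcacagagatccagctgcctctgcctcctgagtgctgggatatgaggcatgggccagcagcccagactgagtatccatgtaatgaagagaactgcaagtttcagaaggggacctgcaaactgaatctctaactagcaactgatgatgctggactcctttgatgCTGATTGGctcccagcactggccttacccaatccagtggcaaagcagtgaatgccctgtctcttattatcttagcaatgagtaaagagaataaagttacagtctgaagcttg
The box began 51 bases before the start in H2-Aa and 62 bases before it in H2-Eb1. It was present in 3 of 7 list members with a RefSeq entry (42.9%) and in 607 of 9246 tested genes (6.57%). The same letters were in 6 of 25 mitotic list members (24.0%), Hmmr and Cdk1 among them, and in 5 of 23 S phase members (21.7%). They were in 61 of 616 genes called higher (9.9%) and 42 of 638 called lower (6.58%), so they are not particular to class II or to lower genes.

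Some markers of cells other than NK cells were also lower in LD cells, while others were not called or were higher. The part of such cells in the lower calls of interferon-induced, class II and cytokine receptor genes was not tested. Of 18 markers of macrophages, monocytes and dendritic cells, 4 (22.2%) were lower (Mpeg1, Flt3, Siglech and Cybb) and 0 higher, and their summed level was 341 and 483 CPM in LD cells, against 780, 791 and 783 CPM in naive cells. Siglech, a marker of plasmacytoid dendritic cells, had 11 and 2 reads in the LD libraries and 166, 119 and 138 in the naive libraries (-5.40 ± 0.47, adjusted p = 1.17e-05). Mpeg1, the perforin-like protein of macrophages, had 4.32 and 8.96 CPM in LD cells and 31.8, 30.9 and 29.2 CPM in naive cells (-2.28 ± 0.34, adjusted p = 0.000637). Lyz2, lysozyme of macrophages, was not called and overlapped, at 19.1 and 42.5 CPM in LD cells and 70.9, 29.8 and 36.8 CPM in naive cells. The B cell markers tested summed to 0.571 and 1.68 CPM in LD cells and 1.93, 4.54 and 2.51 CPM in naive cells, and 0 of 6 were called (1 lower without naive replicate 1 or naive replicate 5). The T cell markers summed to 24.8 and 29.6 CPM in LD cells and 40.5, 42.2 and 38.1 CPM in naive cells. Of 5 T cell markers, Cd3d and Cd3e were lower, with 0 lower without LD replicate 1 and 1 without naive replicate 1 or naive replicate 5.

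Mast cell and basophil genes went in both directions. Of 12 basophil and mast cell markers, Cma1, Hdc, Tpsb2 and Tpsab1 were lower and Cpa3 and Ms4a2 higher, and the list summed to 209 and 180 CPM in LD cells, against 245, 371 and 394 CPM in naive cells, with Kit the highest member. Cma1, a mast cell chymase, had 0.816 and 1.22 CPM in LD cells and 67.4, 57.8 and 90.01 CPM in naive cells (-6.04 ± 0.26, adjusted p = 6e-09). Tpsab1, a mast cell tryptase, had no read in either LD library and 72, 62 and 54 reads in the naive libraries, a level at least 38.2-fold lower in LD cells when 3 reads per library are taken as the limit. Cpa3, carboxypeptidase A3 of the same granules, had 11.4 and 11.8 CPM in LD cells and 1.64, 0.495 and 3.11 CPM in naive cells (3.0 ± 0.69, adjusted p = 0.0115); Cpa3 and Ms4a2 were named after their values had been seen, and both calls were lost without either LD library, with 1 of them left without naive replicate 4 or naive replicate 5. Among neutrophil genes Mpo was higher, at 9.61 and 13.2 CPM in LD cells and 1.55, 0.495 and 3.47 CPM in naive cells (2.93 ± 0.68, adjusted p = 0.0116), a call lost without LD replicate 1 (adjusted p = 0.0619) or LD replicate 3 (adjusted p = 0.0958). Cxcr2 was the 1 lower call of that list and was lost without either LD library, naive replicate 1 or naive replicate 4.

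Of 13 red cell and platelet genes, 8 (61.5%) were lower and 0 higher, with a median of -3.42. Hba-a1, alpha globin, had 11 and 0 reads in the LD libraries and 297, 311 and 216 in the naive libraries. Hbb-bs, beta globin, had 1 read in each LD library and 205, 228 and 179 in the naive libraries. Hba-a2 had 2 and 0 reads in the LD libraries and 213, 260 and 139 in the naive libraries; the alpha globin genes are near copies whose reads may have been divided in any way. Alas2, the haem synthesis enzyme of red cells, had no read in LD cells and 37 in naive cells, a level at least 6.51-fold lower in LD cells by the same limit. The list's sum was 811 and 797 CPM in LD cells, against 887, 2208 and 1016 CPM in naive cells, and was mostly Car2, which was not called. Markers of other innate lymphoid cells were lower for Il1rl1, Tmem176a and Tmem176b of 4 tested, with 0 lower without LD replicate 1 and 1 without LD replicate 3.

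**Figure D5:**
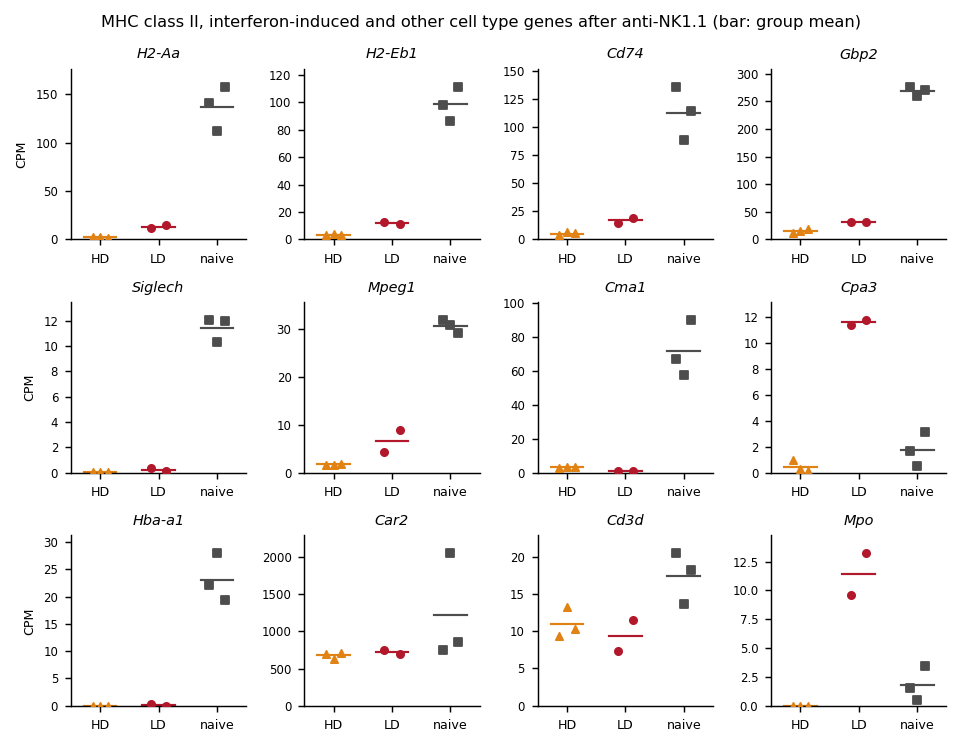
Levels (CPM, each axis from 0) of MHC class II, interferon-induced and other cell type genes in the HD (orange triangles), LD (red circles) and naive (grey squares) libraries after anti-NK1.1, with group means as bars. H2-Aa, Siglech, Cma1 and Hba-a1 lie near 0 in LD and high in naive libraries, while Cpa3 and Mpo are highest in LD.

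Several of the leading genes belonged to no list. Tnni1, troponin I of slow muscle, had 41.3 and 60.4 CPM in LD cells and 5.97, 2.63 and 1.79 CPM in naive cells (4.0 ± 0.42, adjusted p = 3.95e-05). Mgll, a lipase of monoacylglycerols, had 39.4 and 53.8 CPM in LD cells and 2.34, 2.86 and 4.40 CPM in naive cells (3.86 ± 0.41, adjusted p = 3.95e-05). Pdgfa, a subunit of platelet-derived growth factor, had 913 and 472 CPM in LD cells and 84.4, 88.1 and 72.4 CPM in naive cells (3.01 ± 0.30, adjusted p = 2.46e-05). All 3 were well above the naive range in both LD libraries. Ahr, a ligand-activated transcription factor, had 26.8 and 13.7 CPM in LD cells, against 1.71, 1.90 and 1.46 CPM in naive cells (3.45 ± 0.34, adjusted p = 2.33e-05). Usp2, a deubiquitinase, rose by 2.96 ± 0.29 (adjusted p = 2.46e-05). In the other direction Tbc1d4, a regulator of Rab GTPases, had 5.29 and 6.30 CPM in LD cells and 46.0, 58.0 and 43.3 CPM in naive cells (-3.06 ± 0.34, adjusted p = 7.02e-05). Arhgef39, a guanine nucleotide exchange factor, had 4.41 and 6.58 CPM in LD cells and 45.1, 40.8 and 45.3 CPM in naive cells (-3.0 ± 0.54, adjusted p = 0.00259). Each of these was called without any 1 library.

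The direct test of HD minus LD, both with anti-NK1.1, shows where LD cells stood relative to the other IL-15 culture. It called 378 genes higher in HD (3.27%) and 615 lower (5.33%), and counts were 135 and 309 without LD replicate 3 and 198 and 405 without LD replicate 1. The HD libraries were in pool 1, with LD replicate 1, and it shares the LD libraries with the comparison above, so the 2 are set side by side as values only. Gzmc was higher in HD by 5.07 ± 0.22 (adjusted p = 1.54e-08), at 4083, 4321 and 3695 CPM. Ifng was higher in HD by 2.86 (adjusted p = 7.82e-06) and Gzmb by 2.17 (adjusted p = 0.00015). Klrb1c was lower in HD by 2.18 on the log2 scale (adjusted p = 9.18e-06), and Klrb1a, Ncr1 and Egr2 were also lower in HD than in LD. Of 30 mitotic genes 1 was called higher in HD and 0 lower, and of 34 ribosome biogenesis genes 0 were called either way, where at an unadjusted limma p under 0.05 there were 2 lower mitotic genes and 3 higher and 1 lower ribosome biogenesis genes. A p that misses the threshold does not show that LD and HD cells were alike.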

How the data were processed

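RNA of 13 NK cell samples had been sequenced as strand-specific libraries made from captured mRNA, per the labels' protocols. The reads were mapped to mm10 per the submitters' processing notes; the aligner and counting tool are not given in the sources used here. Though the table is named as counts, its deposited values behave as log2 of counts that were quantile normalized and had 1 added: after back-transformation, 96.2% of values under 6 came within 0.05 of a multiple of 1 read over 13 libraries when scaled up by 13. Because the authors' normalization gives every library 1 common distribution, depth was recovered from the order of the values, where successive distinct values stand for 0, 1, 2 and more reads (up to rank 7000), and the CPM given here are those back-transformed deposited values scaled to a sum of 1000000 per library.

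One limma model (limma 3.58.1, R 4.3.3) with 5 groups and a mean-variance trend was fitted to the deposited log2 values of all 13 libraries (8 residual and 6.3 prior degrees of freedom). A gene was tested if its back-transformed value reached 10 in 2 or more libraries; 446 did not. Tests were two-sided with Benjamini-Hochberg adjustment over 11543 genes. Members, gene lists and rules were chosen with earlier results of these data known. Named genes were the 14 largest called increases and 14 largest decreases with a mean of at least 20 CPM in 1 group and no overlap, from each list the 4 genes lowest in p, and 22 panel genes; some are not printed, and other called members of a list are named without values, or with values where stated. Genes without a read in a group are given a bound against 3 reads per library, which covers counting error only. In simulated data with 200 of 11543 genes changed, the test of LD minus naive found 18.8% of genes made to differ by a log2 change of 1 and 77% where it was 2, with 4.58% of calls false. The data had 1566 calls, and the simulated noise came from the model's own spread without a pool effect. These shares may therefore differ from those in the data.

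Alternatives were other filters, limma's treat against a 1.5-fold change, robust moderation, no variance trend, the compared groups alone, pool 2 alone, pool as a factor, an offset of 8, recovered reads with median-ratio scaling or limma-voom, a replicate block and each library left out. Promoters are RefSeq entries of GRCm38.p6 for 9246 of the tested genes. Tables and plots used Python 3.11.15, pandas 2.3.3, numpy 2.4.6 and matplotlib 3.10.9. Some members of the lists are counted but not reported by name here.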

Additional observations from a re-analysis of the deposited data

Results flagged for a closer look

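Of the 49 panel and leading genes, 20 had a level after anti-NK1.1 that differed between HD and LD cells, by the limma test of HD minus LD (adjusted p under 0.05), and so a different change from the naive libraries that both share. Over all tested genes 3.27% were called higher and 5.33% lower in HD. The leading genes were picked by LD minus naive values, and the same LD libraries enter this test, so the count is not a neutral one. The differences are log2 changes of HD minus LD. They were positive for Gzmc (5.07), Ifng (2.86), Csf2 (2.70), Gzmb (2.17), Prf1 (1.73), Ccl3 (1.62), Cma1 (1.54), Tnf (1.52), Gzma (1.23) and Ccl1 (1.08). They were negative for Cxcl9 (-4.16), H2-Aa (-2.58), Klrb1c (-2.18), Ccl22 (-1.89), H2-Eb1 (-1.87), Nr4a1 (-1.70), Eomes (-1.53), Egr2 (-1.26), Gbp2 (-1.03) and Ncr1 (-0.92). Klrb1c, Ncr1 and Egr2 were higher in LD than in naive cells and lower in HD than in LD cells. Both comparisons share the LD libraries, so a high value in an LD library enters both. The LD minus naive change of Egr2 went from 1.13 to 0.49 without LD replicate 1. That of Ncr1 went from 1.11 to 0.75 without LD replicate 3. Gzma and Cma1 were lower in LD than in naive cells and higher in HD than in LD cells. HD libraries were all in pool 1 and naive libraries all in pool 2, so pool and condition cannot be told apart between those 2 groups.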

How the results depend on the processing

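Main counts of LD minus naive were 758 higher and 808 lower. With 1 library left out they ran from 312 to 626 higher and 347 to 652 lower, lowest without LD replicate 1. Pool as a factor gave 313 and 345, pool 2 alone 167 and 295, and treat against a 1.5-fold change 162 and 195; the other filters, moderation, scaling, offset and read-based fits were within 1.5 times of the main counts. For HD minus LD (378 and 615), pool as a factor gave 135 and 309, and leaving out 1 LD library 135 to 198 higher and 309 to 405 lower. The replicate block gave 114 and 111 for LD minus naive and 238 and 339 for HD minus LD. LD and naive groups share only number 1, and samples with the same number did not deviate together (r = -0.07 for LD and naive replicate 1, -0.12 and -0.09 for HD and LD replicates 1 and 3). With 2 LD libraries, their deviations mirror each other and carry their differences in pool and depth. The r values therefore cannot exclude pairing. The main fit did not read the numbers as pairing. Over 17 alternatives, 0 of 3214 values of named genes turned a called direction, 483 lost the call and 23 gained it. Only genes called in the main fit could count as turned. For those without overlap, fits that left out a library or changed the filter or moderation fixed the sign beforehand. The 0 is therefore no test of stability. Tbx21, which was not called, went from -0.23 to 0.09 without LD replicate 1. With 2 LD libraries most 2-fold changes were missed in the simulation, which changed fewer genes than were called in the data. Genes not called are not shown to be unchanged.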
